A study of Mus musculus with 4 samples.

Results

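The spleens of mice fed a purified diet with added nucleoprotein were compared with spleens of mice on the same diet without the addition. The comparison was taken by its tissue and diet labels and rests on 2 of the series' 4 arrays, the other 2 being liver. All animals were male C57BL/6J mice, 13 weeks old, with no transgene or other allele named, and feeding lasted 4 weeks. The control group received the low-nucleoprotein purified diet (low NP), with 0.03% nucleic acids. The treated group received that diet with 1.2% nucleoprotein (NP) added, which brought nucleic acids to 0.5%. A housing note in the labels also names an ordinary chow, and when it was given is not stated. RNA of the mice in a group was pooled before labelling, from a number of mice that is not stated, so each diet is 1 pool and no test of the diet could be run. Both pools were hybridised together on each array of a 2-colour Agilent whole mouse genome design, the NP pool carrying Cy5 on array 1 and Cy3 on array 2. Both arrays together were counted as 1 replicate, a dye swap. Whether a second set of pools was made for array 2 is not clear from the labels, so the gap between arrays holds technical error and possibly more.

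The spleen filters blood and holds the lymphocytes that respond to blood-borne antigens. Its white pulp consists of B cell follicles and T cell zones, and its red pulp holds macrophages that clear old red cells and, in the mouse, islands of red cell formation that persist in adult life. The splenic tail of the pancreas lies against the spleen, and the liver shares with it the portal circulation. Dietary nucleic acids are broken down to nucleosides and bases, which are absorbed, salvaged into nucleotides or degraded to urate and, in the mouse, to allantoin by liver enzymes.

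Each gene is given by its log2 NP over low NP on array 1 and then array 2, and where useful by the mean of both. The value table in the deposit runs the other way, as low NP over NP, so its signs are reversed relative to those printed here. A gene counted as measured when its probe stood well above background in either dye on both spleen arrays, and as called when both arrays passed 1.5-fold with the same sign. Between 64% and 94.7% of probes were well above background, with both dyes of array 1 above 93% and both dyes of array 2 below 68%, and the negative controls of array 1 read 307 in the NP dye and 156 in the low-NP dye, against 62.7 and 71.9 on array 2. Over 18404 measured genes the median was -0.02, with the middle 50% between -0.13 and 0.07. The arrays differed per gene by a median of 0.16, and by 0.44 at the 90th percentile. Defining spleen genes were bright in both pools: the B cell receptor gene Cd79b had a normalized log2 level of 16.6 in NP and 16.4 in low NP, the red pulp macrophage factor gene Spic 15 and 14.7, and the spleen organ gene Tlx1 10.6 and 10.4. The probe of the T cell receptor gene Cd3e lay between 8.63 and 8.89 in all 4 pools, liver included.

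Few transcripts were higher in the NP spleen pool and many were lower. Of the measured genes, 8 were called higher, a share of 0.0435%, and 1170 were called lower, a share of 6.36%. A further 25 genes passed 1.5-fold on both arrays with opposite signs, more than were called higher. At 2-fold on both arrays, 1 gene was higher and 772 were lower, and 128 were lower at 16-fold. The 8 higher genes fell into 2 groups, red cell genes and immunoglobulin probes that share part of their sequence. The lower genes were for the greater part transcripts of liver and of the exocrine pancreas. In tissue RNA of this kind, fewer cells of a type and less RNA per cell cannot be told apart. The tissue that the liver and pancreas transcripts came from was not tested.

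**Figure D1:**
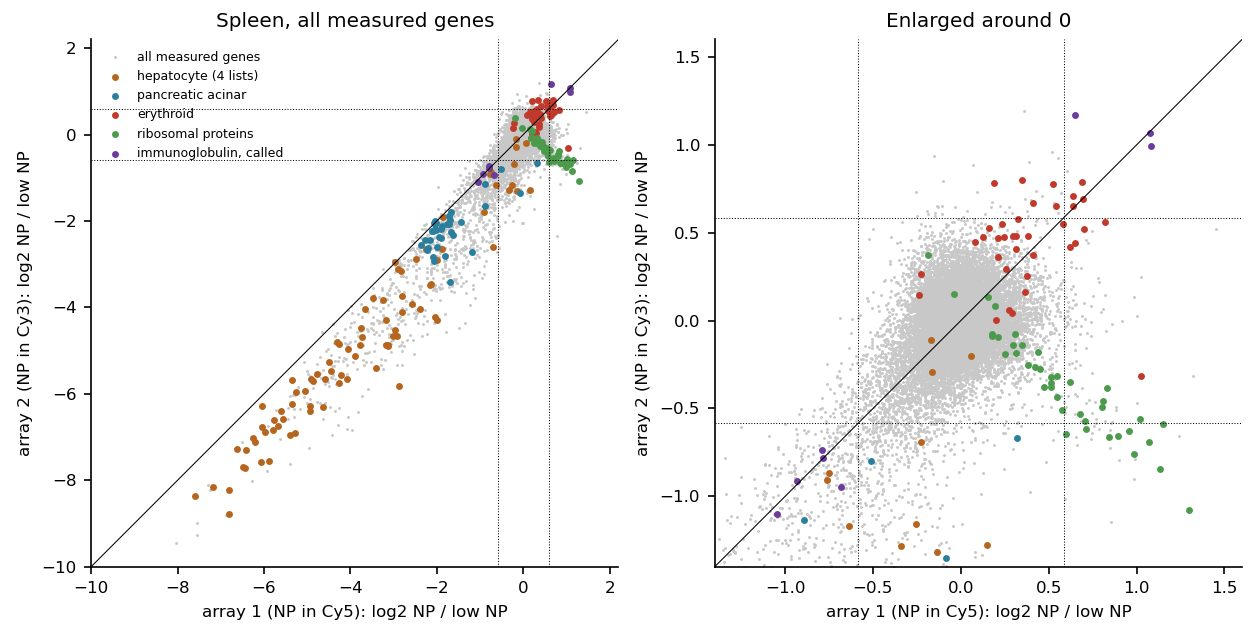
Log2 NP over low NP of each measured spleen gene on array 1 (horizontal) against array 2 (vertical), over the full range on the left and enlarged around 0 on the right, with dotted lines at 1.5-fold and a solid line where the arrays are equal. Hepatocyte genes lie far below 0 on both arrays, acinar genes gather near -2, erythroid genes lie mostly above 0, and ribosomal protein genes run from the centre towards higher values on array 1 and lower values on array 2.

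Red cell transcripts gave 5 of the 8 higher calls. Hemgn, which encodes the erythroid nuclear protein hemogen, stood at 0.69 and 0.79, mean 0.74. Rhd, the Rhesus blood group protein of the red cell membrane, was at 0.69 on both arrays, mean 0.69. Ank1, the ankyrin that ties the red cell membrane to its spectrin skeleton, was at 0.64 and 0.71, mean 0.67. Ctse, the aspartic protease cathepsin E, was at 0.64 and 0.65, mean 0.64. Redrum, a long non-coding RNA described in erythroid cells, was at 0.60 and 0.85, mean 0.73. All 5 were more than 1.5-fold higher in the NP pool on both arrays, and none reached 2-fold.

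Other probes of 2 of these genes gave smaller values. The other measured Hemgn probes read -0.16 and 0.22 for one and 0.32 and 0.56 for the other. Of the 4 measured Ank1 probes, a second read 0.56 and 0.66, just under the call, and the remaining ones 0.05 and 0.34, and -0.04 and 0.40. With median centring in place of loess, which moved the median of all genes to -0.15, none of the 5 was called: Hemgn was then at 0.50, Rhd at 0.44, Ank1 at 0.50, Ctse at 0.43 and Redrum at 0.62. Redrum also lost the call without background correction, at 0.69.

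The erythroid list held 39 genes, of which 36 were measured, 4 were called higher and 0 lower. Its median was 0.39, with array medians of 0.34 and 0.48, against -0.02 over all genes. All but 1 of the 36 lay above the median of all genes, 33 were above 0 on both arrays, and 14 passed 1.5-fold upward on at least 1 array. Beside the called members, Eraf, the chaperone of free alpha globin, was at 0.82 and 0.56, mean 0.69. Klf1, the erythroid Krüppel-like factor, was at 0.54 and 0.65, mean 0.60, and Tal1, a basic helix-loop-helix factor of blood precursors, at 0.70 and 0.52, mean 0.61. The red cell anion exchanger gene Slc4a1 was at 0.53 and 0.78, mean 0.65, and the transferrin receptor gene Tfrc at 0.58 and 0.55, mean 0.56. Each of these lay above 0 on both arrays without passing the call on both.

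Globin and haem genes were less even. Alas2, the first enzyme of haem synthesis in red cells, was at 0.13 and 0.47, mean 0.30. Fech, which inserts iron to form haem, was at -0.24 and 0.15, mean -0.05, and was the 1 member below the median of all genes. The alpha globin probe Hba-a1 had opposite signs, at 1.03 on array 1 and -0.32 on array 2, and had saturated spots. The beta globin probe Hbb-bt, outside the list, did the same, at 1.32 and -0.32. The wider list of haem synthesis had 1 of 14 genes called, Alas1, the housekeeping and liver form of the first enzyme, which was lower at -1.47 and -1.65.

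**Figure D2:**
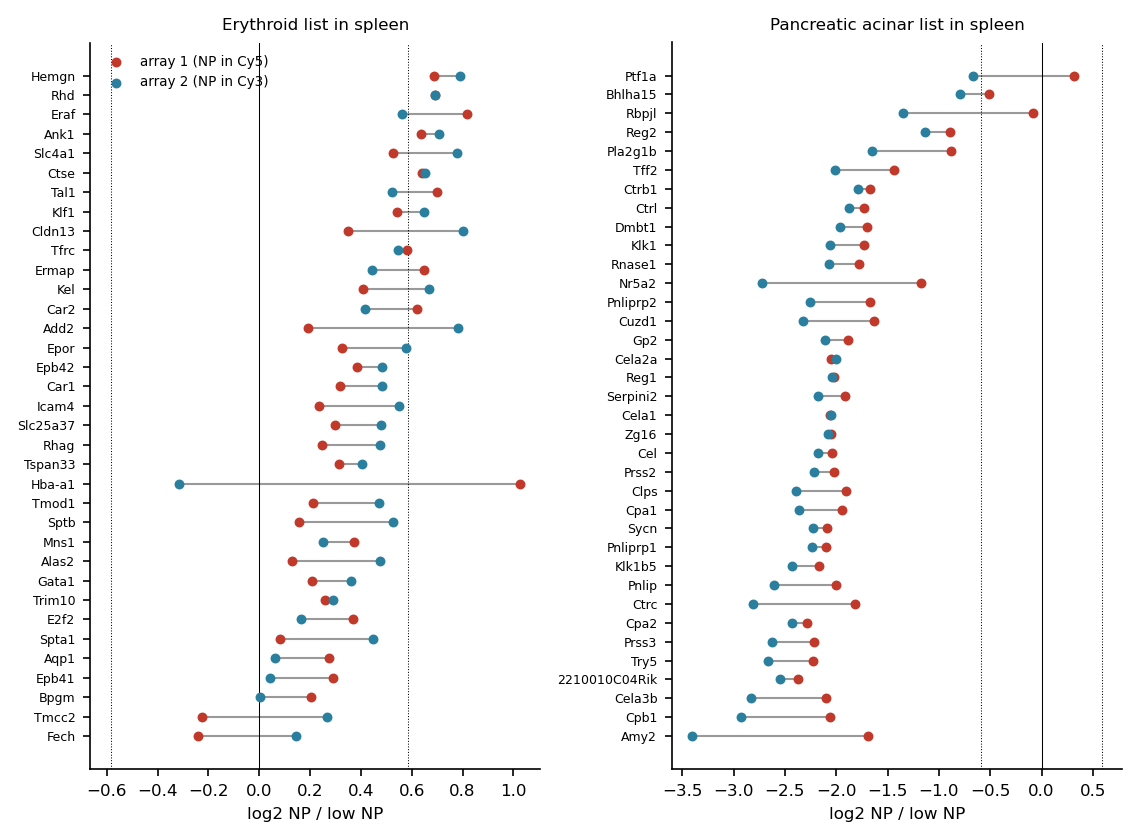
Log2 NP over low NP in spleen of the measured genes of the erythroid list with 1 gene left out (left) and of the pancreatic acinar list (right), on array 1 in red and array 2 in blue, with dotted lines at 1.5-fold. Most erythroid genes lie between 0 and 0.8 on both arrays, apart from Hba-a1, Tmcc2 and Fech, while 30 of the 36 acinar genes have means between -2.5 and -1.5.

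Among the 15402 measured genes that were not at least 2-fold higher in NP liver than in NP spleen, 44 had a mean of 0.5 or more, a share of 0.286%. The erythroid list held 13 of these 44, the neutrophil and granule list 6 and the immunoglobulin genes 7. The neutrophil and granule list thus moved beside the erythroid one: 0 of 21 measured genes were called, the median was 0.22 with array medians of 0.22 and 0.36, and all 21 lay above the median of all genes. Its summed normalized signal was between 0.218% and 0.262% of that of all measured genes in the NP pool and between 0.128% and 0.144% in the low-NP pool, and the erythroid sum was between 0.532% and 0.623% and between 0.345% and 0.418%. These sums are shares of a total in which liver and pancreas transcripts were higher in low NP, and bright genes weigh most in them. No part of one list in the values of the other was tested.

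Neutrophil granule protein and calprotectin genes led the neutrophil list. Chil3, a chitinase-like protein, was at 0.56 and 0.93, mean 0.74, and Ngp, the neutrophilic granule protein, at 0.39 and 0.90, mean 0.65. S100a9 was at 0.75 and 0.51 and S100a8 at 0.71 and 0.46, the subunits of calprotectin. Cell cycle genes also lay together slightly above all genes, with 0 of 35 called, a median of 0.19 and all 35 above the median of all genes. Their median log2 NP liver over NP spleen was -2.27. The 1023 genes between -4 and -2 on that scale had a median of 0.14 and quartiles of 0.09 and 0.20. The cell cycle median lay within these quartiles. The neutrophil median of 0.22, at -2.225 on that scale, lay just above them, and the erythroid median of 0.39, at -2.05, further above. Both ratios contain the NP spleen signal. The proliferation marker gene Mki67 was at 0.36 and 0.41, the cyclin gene Ccna2 at 0.48 and 0.29, and the ribonucleotide reductase gene Rrm2 at 0.39 and 0.38.

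The 3 remaining higher genes were immunoglobulin probes, counted here as kappa. They are shown with the immunoglobulin probes called lower because the letters show which probes could bind the same transcripts, and capitals mark the longest stretch common to the probes of a group. The first group was higher in NP. The array file describes the LOC675694 and LOC383196 probes as similar to a kappa variable region and U76382 as a single-chain antibody (positions LOC675694 at chr6:68013261-68013320, U76382 at chr6:67837640-67837699, LOC383196 at chr17:3042200-3042259, all in mm7, strand not given).
LOC675694: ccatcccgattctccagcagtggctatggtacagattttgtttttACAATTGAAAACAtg
U76382: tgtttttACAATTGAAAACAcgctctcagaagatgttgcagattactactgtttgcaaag
LOC383196: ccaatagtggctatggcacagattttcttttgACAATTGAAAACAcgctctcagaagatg
The second pair, lower in NP, lies in the heavy chain variable region of chromosome 12 (L20961 at chr12:111555238-111555297, ENSMUST00000095369 at chr12:111843790-111843849).
L20961: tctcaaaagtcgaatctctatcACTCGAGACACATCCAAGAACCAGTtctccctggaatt
ENSMUST00000095369: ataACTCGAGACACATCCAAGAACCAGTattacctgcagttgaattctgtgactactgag
The last pair, also lower, comes from kappa transcripts of chromosome 6 (ENSMUST00000089796 at chr6:69876429-69876486, and BC002112, an unannotated cDNA clone, at chr6:70744350-70744399).
ENSMUST00000089796: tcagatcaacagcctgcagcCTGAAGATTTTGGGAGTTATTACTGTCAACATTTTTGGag
BC002112: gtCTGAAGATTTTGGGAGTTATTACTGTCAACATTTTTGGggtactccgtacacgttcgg

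The 13 bases in capitals are common to the 3 kappa probes called higher, and U76382 shares 28 bases with LOC383196 and 20 with LOC675694. The heavy chain pair has 25 bases in common and the kappa pair called lower 38. Counted this way, the 9 called probes shown or named here form 5 families at 20 shared bases or more, since X12401 and Ighg1 shared no such stretch with a called probe. Each measured probe that shared 20 bases with one of them was itself called with the same sign, so several probes of a family do not count as separate genes.

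LOC675694 was at 1.08 and 1.07, mean 1.07, the 1 gene that was 2-fold higher in NP on both arrays. U76382 was at 1.08 and 1.0, mean 1.04, and LOC383196 at 0.65 and 1.17, mean 0.91. With median centring LOC675694 (0.85) and LOC383196 (0.84) were still called and U76382 (0.84) was not. Without background correction LOC383196, at 0.85, was not called. On the lower side, Ighg1, the constant region of IgG1 (chr12:110850276-110850335), was at -1.05 and -1.10, mean -1.07. X12401, a kappa light chain variable region, was at -0.93 and -0.91. ENSMUST00000095369 was at -0.68 and -0.95, and L20961 at -0.79 and -0.78. ENSMUST00000089796 was at -0.79 and -0.74, beside BC002112 at -0.94 and -0.90.

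Immunoglobulin genes spread in both directions more widely than other genes of the spleen. This group was put together after values had been seen, and its counts leave out the unannotated clone BC002112 shown above. Of 143 measured immunoglobulin genes, 3 were called higher and 5 lower, with a median of -0.05, and 19, or 13.3%, had a mean past 0.5 in either direction. Among the other 15259 genes not 2-fold higher in NP liver, 111 did, or 0.727%, and among the 15214 of these in no pancreatic list 76 did, or 0.500%. Kappa genes held 3 higher and 2 lower calls among 75, and heavy chain genes 0 and 3 among 66. Of the lambda genes, Iglv1 was at 1.45 and 0.52, mean 0.99, above 0 on both arrays and short of the call on array 2. The IgM constant region gene Ighm was at 0.72 and -0.16, with opposite signs on the arrays. The plasma cell list as a whole lay at a median of -0.22, and 3 of its 16 genes were called lower and 0 higher. Its summed signal went the other way, between 0.531% and 0.564% of that of all measured genes in NP and between 0.375% and 0.427% in low NP. The B cell sum was between 0.863% and 0.940% in NP and between 0.643% and 0.726% in low NP, though 0 of 24 B cell genes were called. As with the other sums, the total includes liver and pancreas signal, which was higher in low NP, and bright genes weigh most. The 3 plasma cell genes called lower were Ighg1, Sdc1 and Fkbp11. The plasma cell surface gene Sdc1 was at -1.0 and -1.03. Fkbp11, an endoplasmic reticulum isomerase gene of secretory cells, was at -0.87 and -1.31. Sdc1 and Fkbp11 were also at least 2-fold higher in NP liver than in NP spleen.

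Transcripts of hepatocytes made up the lowest values in NP spleen. Akr1c6, a hepatic hydroxysteroid dehydrogenase, was at -8.04 and -9.46, mean -8.75. Fabp1, the liver fatty acid binding protein, was at -7.55 and -9.27, mean -8.41, and Fgg, the gamma chain of fibrinogen, at -7.60 and -8.36, mean -7.98. The normalized log2 level of Akr1c6 was 8.00 in NP spleen and 16.7 in low-NP spleen, against 17.3 in either liver pool. Among genes with an NP probe not well above background on either array, only a bound can be given, and it was at least 37.4-fold lower for Slc2a2, the liver glucose transporter, at least 35.7-fold for Spp2 and at least 9.80-fold for A1cf, the cofactor of apolipoprotein B editing. Such bounds, from channel levels, existed for 11 genes.

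Of the 86 measured genes of 4 hepatocyte lists, 78 were called lower and 0 higher, with a median of -4.38, array medians of -3.76 and -4.88, and means from -7.98 to -0.07. Array 2 gave larger differences than array 1 in each of the 4. All 29 secreted protein genes were lower, with a median of -5.29, among them the prothrombin gene F2 at -5.35 and -6.23 and the antithrombin gene Serpinc1 at -5.89 and -7.57. Periportal enzymes, those of hepatocytes near the incoming blood, were lower in 18 of 19 cases with a median of -4.50. The carbamoyl phosphate synthetase gene Cps1, whose NP probe was well above background on 1 of the 2 arrays, was at -6.45 and -7.72, and Pck1, the enzyme that commits carbon to glucose synthesis, at -6.05 and -6.29.

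Pericentral enzymes, those around the outgoing vein, were lower in 16 of 20 cases with a median of -2.91, with the ethanol-oxidising cytochrome gene Cyp2e1 at -4.78 and -5.55 and the glutamine synthetase gene Glul at -0.64 and -1.17. Carriers for uptake and export were lower in 15 of 18 cases with a median of -3.77, with the organic anion transporter gene Slco1b2 at -6.48 and -7.69 and the bile salt pump gene Abcb11 at -5.06 and -5.93. The 8 genes that were not called were Abcc6, Abcg8, Ahr, Axin2, Lgr5, Rhbg, Slc13a3 and Sult5a1, and none of them was more than 2.62 higher in NP liver than in NP spleen on the log2 scale. Hepatocyte transcription factors, a list of its own, were lower in 12 of 18 cases with a median of -1.93: Foxa2 was at -3.38 and -4.29 and Hnf4a, with its NP probe well above background on 1 of the 2 arrays, at -2.02 and -3.61.

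Levels in the liver arrays placed these calls by tissue. Of the 1170 genes called lower, 1112, or 95%, exceeded their NP spleen level by 2-fold or more in the NP liver pool, against 11% of the 17234 genes not called lower. At 16-fold the liver-high genes numbered 575, of which 574 were called lower. The remaining gene had opposite signs on the arrays. Both shares use the NP spleen signal that also enters the spleen ratio, so the 2 measures are not independent.

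The spleen ratio was lower the higher the liver-to-spleen ratio. Its median was 0.15 for the 215 genes 16-fold or more higher in NP spleen, 0.03 for genes up to 2-fold higher in NP spleen, and -0.07 for those up to 2-fold higher in NP liver. It was -0.70 for genes between 4-fold and 8-fold higher in NP liver (2 to 3 on the log2 scale), -2.10 between 4 and 5 on that scale, -4.48 between 6 and 8 and -6.91 for the 22 genes at 8 or more. Hepatocyte genes followed this course, and the acinar genes lay apart from it.

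**Figure D3:**
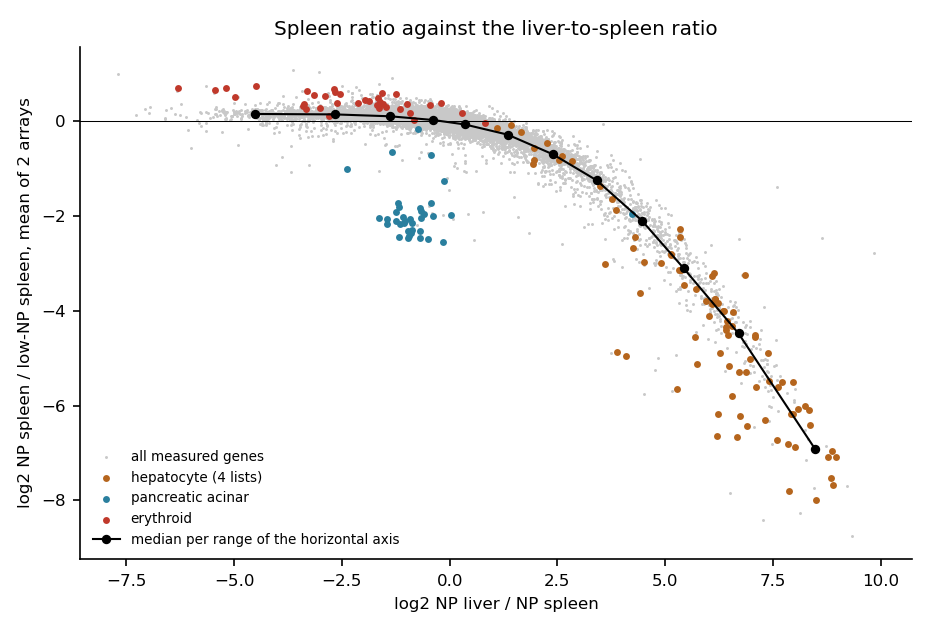
Log2 NP over low NP in spleen (mean of both arrays, vertical) against log2 NP liver over NP spleen (horizontal) for each measured gene, with the median per range of the horizontal axis as a black line. The line lies near 0.15 at the left, leaves 0 near equal levels and reaches -6.91 at the right, and the acinar genes stand near -2 at levels that are similar in both tissues; both axes contain the NP spleen signal.

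For those 575 liver-high genes, the level in the low-NP spleen pool was compared with the level in the NP liver pool. The median was 20.2% of the liver level, with the middle 50% of genes between 17.1% and 24.9% and array medians of 18.2% and 23.4%. In the NP spleen pool the same genes stood at 2.40%, a share held low by the 16-fold choice itself. The NP liver level both entered the choice of these genes and was the denominator of each share. By list, the median was 42.9% for 27 secreted protein genes, 25.7% for 17 periportal enzymes, 25.8% for 12 pericentral enzymes, 21.4% for 14 carriers, 18.4% for 10 transcription factors and 16.1% for 18 acute-phase genes. These shares cover only the 16-fold liver-high genes, which were 17 of 19 periportal and 12 of 20 pericentral ones. Glul, a pericentral gene outside that limit, had 49.4%. Some bright genes departed upward: 3 major urinary protein genes had a median of 141%, where Mup1 had saturated spots, and Fabp1 had 221%. Of the secreted protein genes, Ahsg had 182% and Apoc1 131%. Saa1, also bright in NP liver, lay far lower, at 1.38%.

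The summed signal of the 86 hepatocyte genes was between 0.129% and 0.228% of that of all measured genes in NP spleen, between 3.42% and 4.45% in low-NP spleen and between 6.18% and 8.50% in the liver pools. Alb had a normalized log2 level of 14 in NP spleen against 18.9 in low-NP spleen, with saturated spots. The NP probes of Cps1, at 7.14, and Hnf4a, at 7.51, were well above background on 1 of the 2 arrays. The reverse pattern stood in the liver arrays, where the 215 genes that exceeded NP liver by 16-fold or more in NP spleen stood in low-NP liver at a median of 18% of their NP spleen level. Here too the denominator, the NP spleen level, had entered the choice of genes. The source of the liver transcripts in low-NP spleen was not tested.

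Exocrine pancreas transcripts were the second group that was lower in NP spleen. Of 36 measured genes of the acinar list, 33 were called lower and 0 higher, with a median of -2.05, array medians of -1.91 and -2.20, and the middle 50% between -2.30 and -1.88. Cpb1, a carboxypeptidase precursor, was at -2.07 and -2.93, mean -2.5. Cela1, an elastase, was at -2.06 and -2.05, mean -2.06, and the trypsinogen gene Prss2 at -2.02 and -2.21, mean -2.12. The lipase gene Pnlip was at -2.01 and -2.61 and the amylase gene Amy2 at -1.69 and -3.40. Digestive enzymes and enzyme precursors of different families thus had means within a narrow band. Reg2, a secreted regenerating protein, stood outside it at -0.90 and -1.14.

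The 3 acinar genes that were not called encode transcription factors of acinar cells: Bhlha15 was at -0.51 and -0.80, Rbpjl at -0.09 and -1.35 and Ptf1a at 0.32 and -0.67. Islet genes were mostly not called. The islet list had 1 of 11 measured genes called lower, Ttr, which is also a major liver product, and a median of -0.07. The insulin genes Ins2 (-0.06 and -1.30) and Ins1 (0.25 and -0.64) and the glucagon gene Gcg (-0.04 and -0.48) were not called, and their NP probes were well above background on 1 of the 2 arrays.

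Acinar genes differed from the hepatocyte genes in their levels across the 4 pools. Relative to NP liver, the median acinar gene was 0.91 higher in NP spleen, 3.01 higher in low-NP spleen and 0.92 higher in low-NP liver on the log2 scale. Low-NP spleen exceeded low-NP liver by 2.06. The summed signal of the 36 genes was between 0.600% and 0.878% of that of all measured genes in NP spleen, between 2.71% and 3.20% in low-NP spleen, between 0.391% and 0.402% in NP liver and between 0.721% and 0.845% in low-NP liver. Both low-NP pools were thus above their NP partner. Lists of other neighbouring tissues held few calls. Of 12 intestine and stomach genes 3 were called lower, among them Fabp2, the intestinal fatty acid binding protein, at -4.46 and -6.31, and of 14 adipocyte genes 1, Car3, at -3.67 and -4.08; all 4 were at least 2-fold higher in NP liver. The mesothelial and skeletal muscle lists had 0 calls among 10 and 8 genes. The adipocyte gene Adipoq was at -0.00 and 0.04, the mesothelial gene Msln at -0.14 and 0.13, and the skeletal muscle gene Acta1 at 0.14 and 0.15. The source of the acinar transcripts was not tested.

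Promoters of 1 gene per group, each holding a match, are shown because the genes of each group moved together, with 1 searched motif in capitals. Each is the 200 bases before the start site in RefSeq, build GRCm38.p6, read along the gene's strand: Rhd (chr4:134864336-134864535, plus strand), Cela1 (chr15:100687921-100688120, minus strand) and Alb (chr5:90460670-90460869, plus strand). In the Rhd promoter the capitals mark AGATAA, a motif of erythroid zinc finger factors. In the Cela1 promoter they mark the E-box CACCTG, which basic helix-loop-helix factors recognise. In the Alb promoter they mark GTTAAT, a short motif searched for with hepatocyte genes in mind.
Rhd: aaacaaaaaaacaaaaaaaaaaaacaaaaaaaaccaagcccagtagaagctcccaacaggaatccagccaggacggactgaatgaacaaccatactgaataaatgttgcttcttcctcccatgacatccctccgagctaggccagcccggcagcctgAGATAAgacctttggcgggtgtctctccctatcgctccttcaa
Cela1: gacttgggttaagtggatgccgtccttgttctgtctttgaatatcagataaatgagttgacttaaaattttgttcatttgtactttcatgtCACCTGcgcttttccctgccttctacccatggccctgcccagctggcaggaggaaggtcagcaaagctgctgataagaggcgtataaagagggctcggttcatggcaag
Alb: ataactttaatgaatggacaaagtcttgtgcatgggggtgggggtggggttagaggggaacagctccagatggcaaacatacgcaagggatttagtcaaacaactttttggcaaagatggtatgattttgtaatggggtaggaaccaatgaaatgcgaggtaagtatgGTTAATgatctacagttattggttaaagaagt

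Motifs were searched on both strands in the same window of all 27025 promoters of that table, and not every member of a list had one. AGATAA was found in 8.0% of all promoters, in 6 of 25 erythroid promoters (24.0%), in 10 of 28 acinar ones (35.7%) and in 10 of 61 hepatocyte ones (16.4%). Of the 4 called genes of the erythroid list, Rhd was the only one among those 6. CACCTG was found in 13.7% of all promoters and in 14 of 28 acinar ones (50%), against 6 of 25 erythroid ones (24.0%) and 12 of 61 hepatocyte ones (19.7%). GTTAAT was found in 5.1% of all promoters, in 9 of 61 hepatocyte ones (14.8%), in 2 of 28 acinar ones (7.1%) and in 0 of 25 erythroid ones. The Rhd match starts 43 bases before the start site, the Cela1 match 109 and the Alb match 32. The other motifs searched were CCACACCC (2.7% of all promoters), CAAAGTCCA (0.3%), TTGCGCAA (0.1%) and TATAAA (10.6%), the last found in 9 of 28 acinar promoters (32.1%). These shares describe letters in a window and say nothing of binding.

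Outside liver-high genes and the pancreatic lists, 26 genes were called lower, 5 of them in the immunoglobulin group, which leaves out BC002112. Among the 21 others, several are secretory products of exocrine glands that the acinar list did not hold. The amylase genes Amy1 (-1.74 and -3.28, with saturated spots) and Amy2a5 (-1.96 and -2.18), the protein disulfide isomerase gene Pdia2 (-1.86 and -2.03) and the kallikrein genes Klk1b8 (-1.81 and -2.12), Klk1b3 (-1.73 and -2.19), Klk1b4 (-1.68 and -2.15) and Klk1b26 (-1.35 and -2.21) lay in the range of the acinar list. Kallikrein probes are close in sequence, so their values may not be separate. Tmed6, a protein of the secretory pathway, was at -1.53 and -1.39, Reg3d at -0.93 and -1.47, and Nupr1, a stress-induced nuclear protein, at -1.11 and -1.0. Gprc5d, a receptor of plasma cells, was at -0.81 and -1.34. Just inside the call stood Tmem19 at -0.59 and -0.66 and Selenoi at -0.59 and -0.79, and just outside it Aifm1 at -0.58 and -0.86 and Dcaf11 at -0.77 and -0.58.

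**Figure D4:**
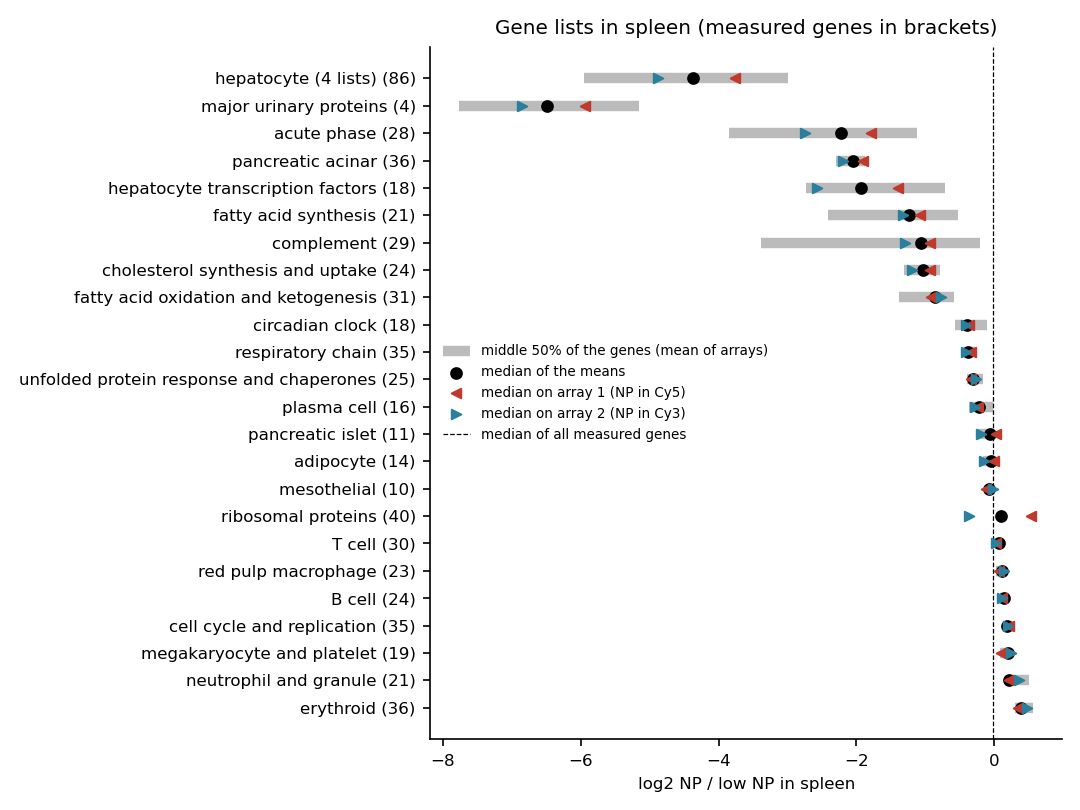
Median log2 NP over low NP in spleen of 24 gene lists, with the number of measured genes in brackets, the middle 50% of genes as a grey bar and the medians on array 1 and array 2 as red and blue triangles. Liver and acinar lists lie well below the dashed median of all genes, immune lists lie within 0.25 of it, the erythroid list lies highest at 0.39, and the ribosomal protein list has its array medians on opposite sides of 0.

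Lists of plasma proteins and lipid metabolism that hepatocytes dominate were lower as well. Complement genes were called lower in 19 of 29 cases, with a median of -1.07. The factor I gene Cfi was at -5.93 and -7.78 and the fifth component gene Hc at -4.07 and -6.81. Without the genes 2-fold higher in NP liver, the complement median turned to 0.15, with 0 of the 8 remaining genes called, among them the C1q gene C1qa of macrophages at -0.10 and 0.45. Acute-phase genes were lower in 22 of 28 cases with a median of -2.22. Iron handling genes were lower in 9 of 22, the haem-binding plasma protein gene Hpx at -6.06 and -6.76, the hepcidin gene Hamp at -3.25 and -4.17 and the transferrin gene Trf at -2.98 and -2.96 among them.

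Cholesterol synthesis and uptake was lower in 17 of 24 genes with a median of -1.03, including the squalene epoxidase gene Sqle (-0.83 and -1.27). Fatty acid synthesis was lower in 12 of 21 with a median of -1.24, including Fasn, the fatty acid synthase (-1.34 and -1.44), while Scd2, a fatty acid desaturase, was at 0.34 and 0.25 and not called. Fatty acid oxidation and ketogenesis was lower in 22 of 31 with a median of -0.86. In these 3 lists the called genes were all 2-fold or more higher in NP liver. The respiratory chain list had 0 of 35 genes called, yet none of the 35 lay above the median of all genes and its median was -0.38, with array medians of -0.33 and -0.41. Chaperones of the unfolded protein response had a median of -0.30, and the 1 gene called lower was Hyou1 at -0.71 and -0.62.

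Immune cell lists held few calls. Over 11 lists with 202 measured genes, the plasma cell list aside, 0 were called higher and 5 lower, with a median of 0.11. With the plasma cell list, 8 of 216 genes were called lower, or 3.70%, against 6.36% of all genes, and 7 of these 8 were at least 2-fold higher in NP liver. B cell genes were at a median of 0.14 with 0 of 24 called, with Cd79b at 0.27 and 0.07 and the CD20 gene Ms4a1 at 0.19 and 0.09. All 24 lay above the median of all genes. The 215 genes 16-fold or more higher in NP spleen than in NP liver, where the B cell list has its median, stood at 0.15. The T cell list was at 0.07, natural killer cells at 0.10, dendritic cells at 0.09, red pulp macrophages at 0.11 and class II antigen presentation at 0.16, and with median centring the T cell and red pulp macrophage medians lay below that of all genes. The 5 lower genes of the 11 lists included Clec4f, a Kupffer cell lectin (-1.34 and -4.36), Vsig4, a complement receptor of liver macrophages (-0.59 and -2.36), Trf, and the fibronectin gene Fn1 (-1.23 and -1.16). All 5 were at least 2-fold higher in NP liver than in NP spleen.

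Nucleotide metabolism, the pathway that the diet supplies, was measured in 78 of 82 listed genes over 6 lists. None was called higher and 14 were called lower, or 17.9% against 6.36% of all genes, and all 14 were at least 2-fold higher in NP liver. The 59 genes that were not 2-fold higher in NP liver had 0 calls, a median of 0.02 and a range from -0.43 to 0.39. The split by liver level uses the NP spleen signal, which also enters the spleen ratio, so a gene lower in NP spleen is more likely to count as liver-high.

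Purine breakdown held the lowest values. The urate oxidase gene Uox was at -6.06 and -7.58, and Urah, which acts on its product, at -4.70 and -5.51. The aldehyde oxidase gene Aox1 was at -1.70 and -2.06, and Xdh, whose product makes urate, at -0.69 and -0.33, not called since array 2 was short of 1.5-fold. Adenosine deaminase (Ada) was at -0.13 and 0.09, and purine nucleoside phosphorylase (Pnp) at -0.07 and 0.00, neither called.

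In salvage, the adenosine kinase gene Adk was lower at -2.54 and -2.47, the uridine phosphorylase gene Upp2 at -3.07 and -4.47 (NP probe well above background on 1 of the 2 arrays) and the thymidine phosphorylase gene Tymp at -0.59 and -0.64. The hypoxanthine salvage gene Hprt was at 0.15 and -0.16 and the thymidine kinase gene Tk1 at 0.06 and 0.18, neither called. Of the pyrimidine genes, the breakdown enzymes Dpyd (-3.27 and -4.33), Dpys (-2.13 and -3.83), Upb1 (-3.99 and -3.97) and Agxt2 (-0.72 and -2.47) were lower, Agxt2 with its NP probe well above background on 1 of the 2 arrays. The synthesis genes Cad (0.06 and 0.18) and Umps (-0.12 and -0.14) were not called. De novo purine synthesis had 1 of 15 genes called, the one-carbon enzyme gene Mthfd1 at -0.84 and -0.72, while Ppat, the committed step, was at -0.13 and 0.05.

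Nucleoside transporters had 0 of 7 genes called. The equilibrative transporter gene Slc29a1 was at -0.55 and -0.43, and the concentrative purine transporter gene Slc28a2 at 0.14 and 0.31. Of 21 nucleic acid sensors 1 was called lower, or 4.76% against 6.36% of all genes. It was the probe of Tlr9, a receptor for unmethylated DNA, at -1.16 and -0.99. That probe read 3.42 higher in NP liver than in NP spleen on the log2 scale. Nucleases were lower in 5 of 19 cases, among them Rnase1, a pancreatic ribonuclease, at -1.77 and -2.07 and Rnase4, a plasma ribonuclease of liver, at -2.75 and -2.86.

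**Figure D5:**
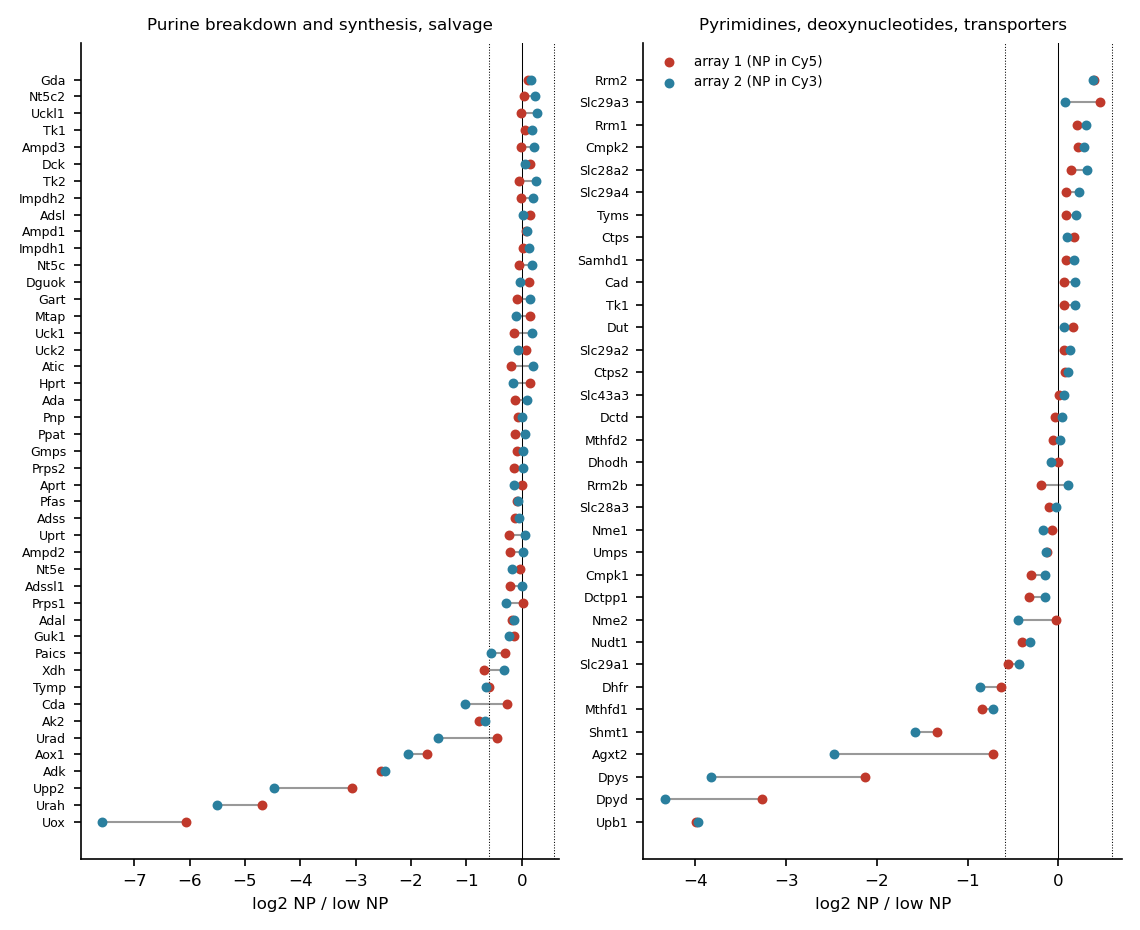
Log2 NP over low NP in spleen of the measured genes of purine breakdown, synthesis and salvage (left) and of pyrimidine, deoxynucleotide and transporter lists (right), on array 1 in red and array 2 in blue, with dotted lines at 1.5-fold. Most genes lie between the dotted lines on both arrays, and the lowest are Uox and Urah on the left and Upb1, Dpyd and Dpys on the right.

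Ribosomal protein genes had opposite signs on the arrays. Their median was 0.53 on array 1 and -0.37 on array 2, with 0 of 40 called, and 0.09 over the means of both arrays, of which 39 lay above the median of all genes. Dye orientation and any difference between pools made for each array cannot be told apart. Of the 25 genes past 1.5-fold with opposite signs, all were higher in NP on array 1, where NP was in Cy5, and 18 carry ribosomal protein names, such as Rps20 at 1.15 and -0.59.

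The liver arrays gave 12 genes called higher in NP of 16962 measured, a share of 0.0707%. All 12 were measured in spleen, where 0 were called higher and 4 lower: the serum amyloid genes Saa1 (-1.69 and -3.24), Saa2 (-2.23 and -3.32) and Saa3 (-0.79 and -1.99), acute-phase proteins of the liver, and Cyp7a1 (-2.39 and -4.04), the first enzyme of bile acid synthesis, whose NP spleen probe was well above background on 1 of the 2 arrays. The low-NP spleen level of Saa1 was 1.38% of the NP liver level and that of Saa3 1.35%, against the median of 20.2% for liver-high genes. The NP liver level of these genes was itself higher than in low-NP liver. Relative to low-NP liver, Saa1 stood at 8.77% and Saa3 at 8.45%, against a median of 23.1%. Orm3, an orosomucoid gene, was at 0.17 and -0.28 in spleen and Lcn2, the siderophore-binding lipocalin, at 0.22 and 0.21. The metallothionein genes Mt1 and Mt2 had spleen means of -0.32 and -0.34, also not called. The differences between the tissues were not tested.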

How the data were processed

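Spleen and liver RNA of both diets was hybridised on 4 arrays of 1 slide. The deposited scanner files hold spot intensity values in both dyes, per the file headers. The scans were read with Agilent Feature Extraction 9.5.3.1, per the submitters' processing notes. The deposited files also hold log10 ratios of the software's processed intensity, per the file headers, and the authors' value table holds log10 ratios as well. Its spleen columns correlated with the scanner ratios of Cy5 over Cy3 at -0.989 and 0.998, which fixes their direction as low NP over NP; their medians were -0.01 and -0.04, their centring is not stated, and 2.69% and 19.4% of features differed beyond rounding. RNA was labelled after linear amplification, per the labels' protocols.

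In limma 3.58.1 under R 4.3.3, mean signals were background-corrected with normexp (offset 50) and normalized by loess within each array. Control spots and outlier spots had no weight. Levels per pool, used only to compare pools for the same probe, came from Aquantile scaling between arrays and are open to dye bias, which the swap balances. Of 41174 probes, 23082 were named by accession, 6582 by symbol and 3073 by synonym through RefSeq genes of GRCm38.p6, used for names and promoters only, and 8437 kept the file's name, giving 27666 gene labels; probe positions are mm7. A gene is represented by its brightest probe over the 4 arrays. More than 1 measured probe existed for 6442 genes; among them 417 had a call, 250 had both called and uncalled probes, and 0 had calls in opposite directions. Tables used Python 3.11.15, pandas 2.3.3 and numpy 2.4.6, and figures matplotlib 3.10.9.

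The comparison, the 62 gene lists and the immunoglobulin group were chosen with earlier results of these data known. Named genes are all higher calls, the lowest recognised calls, the lowest outside liver and pancreas, the largest bounds, called and extreme members of each list, all nucleotide genes, tissue markers and genes at the edge of the call. Slc4a1, Tal1, Hba-a1 and Hbb-bt, the genes with opposite signs on the arrays, and those called higher in liver were added after their values were seen. With 1 pool per diet no p-value was computed; the number of arrays limits the precision. The calling step was tested on simulated data. Alternatives were other background and dye corrections, other filters and probes, a 2-fold call, the deposited table, either array alone, and removal of liver or pancreas genes. Some genes are not reported here. Further analyses that need mm7 or protein sequences were not run.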

Additional observations from a re-analysis of the deposited data

Results flagged for a closer look

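In all, 5 genes were called in opposite directions in the spleen and liver comparisons, and none of these differences was tested. LOC675694, the immunoglobulin kappa probe, was called higher in NP spleen (mean 1.07) and lower in NP liver (-1.4). Its log2 NP liver over NP spleen was -3.63. Other spleen genes were lower in NP liver as well, the median B cell gene being 2.13 higher in low-NP liver than in NP liver. Cyp7a1 was called lower in NP spleen (-3.21) and higher in NP liver (0.75), its NP spleen probe being well above background on 1 of the 2 arrays. Saa2 was lower in NP spleen (-2.78) and higher in NP liver (2.65), Saa1 was at -2.46 and 2.67, and Saa3 was at -1.39 and 2.65. Their levels in the low-NP pools stand beside these values: Saa1 had a normalized log2 level of 11.7 in low-NP spleen and 15.2 in low-NP liver, against 9.27 and 17.9 in the NP pools.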

How the results depend on the processing

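The count of higher genes depended on the processing more than that of lower genes. Against 8 genes higher, the scanner software's processed signals and the deposited table each gave 48, with all 8 among them, median centring 3 (2 of the 8) and a 2-fold call 1, and single arrays gave 50 and 130. Against 1170 lower, single arrays gave 1671 and 1243, a 2-fold call 772, removal of genes 2-fold higher in NP liver 58, and removal of the pancreatic lists as well, chosen after seeing the data, 26. The median of all genes moved from -0.02 to -0.15 with median centring, 0.10 with the processed signals and 0.10 with the deposited table. List medians below are relative to it. The erythroid list, at 0.41, was at 0.37 and 0.51 on single arrays and between 0.38 and 0.50 otherwise, the hepatocyte lists, at -4.36, stayed between -4.87 and -3.73, and the acinar list, at -2.04, between -2.19 and -1.88. The low-NP spleen share of the liver level, 20.2%, was 18.2% and 23.4% on single arrays, 19.3% with quantile scaling, 22.6% for genes 64-fold higher in liver and 23.1% against low-NP liver. Without liver-high genes the complement list, at -1.05, turned to 0.13, also without the pancreatic lists, and fatty acid oxidation, at -0.84, to 0.00. The remaining lists gave 518 values within the gap between array medians divided by the square root of 2, and 194 beyond it. The 518 include those of the 2-fold call, which leaves list medians unchanged by construction. Of 310 named genes called, 23 lost the call with median centring, 18 without background correction, 15 with the processed signals and 24 with the median of a gene's probes, and 0 changed direction when called. No paired analysis was possible because each diet is 1 pool and both pools lie on every array. Both arrays limit what dim genes can show. On array 2, 64% and 67.5% of probes were above background. On array 1, 94.7% and 93.1% were, with negative controls of 307 and 156 against 62.7 and 71.9 on array 2.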
